A study of Mus musculus with 64 samples.

Results

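The membrane-spanning 4-domain subfamily A (MS4A) genes measured here were Ms4a4a, Ms4a4b, Ms4a4c, Ms4a6b, Ms4a6c, Ms4a6d and Ms4a7, taken by their symbols from the table of batch-corrected counts. All 7 were present among its 25239 genes, and all 7 passed the filter on low counts in each of the 20 comparisons reported. At day 12 after intravitreal adeno-associated virus (AAV), Ms4a4b and Ms4a4c rose at every age, Ms4a6c rose at 9 and 18 months, and Ms4a4a fell at 3 months. These changes passed a test against a log2 fold change of 1, which Ms4a6c at 3 months, at 1.10, did not. With all libraries in the fits, no age difference of the day 12 change passed for any member. Nor did any difference in Ms4a6b, Ms4a6d or Ms4a7 pass the test in any comparison.

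The libraries were bulk RNA-seq of 600 tdTomato-high, DRAQ7-negative cells sorted as microglia from 1 retina, with no CD45 gate. All mice, controls included, carried Cx3cr1CreER and R26-tdTomato in the heterozygous state on C57BL/6J and had received tamoxifen eye drops followed by a washout, so the fluorescent label marks whichever cells had used the Cx3cr1 promoter at that time. The injected groups received an AAV2 null vector (CMV, WPRE and a TLR9-inhibitor sequence, with no transgene) at 1e10 genome copies per eye and were collected on day 12 or day 28. The naive groups were uninjected, and no vehicle-injected library was among those analysed, so the injection and the vector cannot be told apart. Females and males were sampled at 3, 9 and 18 months, which gave 7 naive, 8 day 12 and 7 day 28 libraries at 3 months, 5, 7 and 7 at 9 months, and 7, 7 and 7 at 18 months. Of the 64 libraries in the series 62 were used, and only 2 naive males were available at 9 months. By the study's methods the other eye of each mouse went to flow cytometry or tissue staining, so each library comes from a different mouse and p-values measure the spread between mice.

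MS4A proteins cross the membrane several times and sit in the surface and endosomal membranes of leukocytes, where several members associate with immune receptors and adjust their signalling. The family's best known member, Ms4a1, encodes CD20 of B cells. In macrophages MS4A4A associates with the beta-glucan receptor Dectin-1, and the human gene cluster is known in the brain for its link to soluble TREM2 and the risk of Alzheimer's disease. Ms4a4b is a lymphocyte gene that modulates T cell activation, Ms4a7 is used to mark border and bone-marrow-derived macrophages of the nervous system, and Ms4a4c and Ms4a6c are expressed by monocytes and respond to interferon.

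The 7 genes lie within 284 kb of chromosome 19 (GRCm38, chr19:11321039-11604849), in the order Ms4a7, Ms4a4a, Ms4a4c, Ms4a4b, Ms4a6c, Ms4a6b and Ms4a6d. Ms4a7 and Ms4a6d lie on the minus strand and the other 5 on the plus strand. RefSeq (GRCm38.p6) upstream windows of 250 bases were matched for 6 of the 7 members, all but Ms4a6d. The full windows of Ms4a6c and Ms4a6b were the most extensively alike, with 152 of 182 aligned columns identical (83.5%). At day 12 the log2 fold changes at 3, 9 and 18 months were 1.10, 2.10 and 2.59 for Ms4a6c and -0.15, 0.59 and 0.89 for Ms4a6b. The changes of these genes were not tested against each other. Of the Ms4a6b window 106 bases lie in annotated exons and 144 are printed, so the aligned columns run into transcribed sequence. Both windows hold a copy of GAAANNGAA, the core of the interferon-stimulated response element, shown in capitals. Bases inside any annotated exon were left off, so the Ms4a6c sequence (plus strand, chr19:11469118-11469365) and the Ms4a6b sequence (plus strand, chr19:11518309-11518452) both begin 250 bases before the RefSeq start. Neither of the 2 annotated Ms4a6c transcripts spans the first stretch, and 1 of the 5 annotated Ms4a6b transcripts spans the second with an intron.

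Ms4a6c: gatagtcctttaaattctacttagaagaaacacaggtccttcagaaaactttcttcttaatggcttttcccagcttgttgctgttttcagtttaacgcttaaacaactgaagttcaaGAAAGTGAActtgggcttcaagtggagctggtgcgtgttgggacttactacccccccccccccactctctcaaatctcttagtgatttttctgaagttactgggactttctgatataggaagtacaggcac
Ms4a6b: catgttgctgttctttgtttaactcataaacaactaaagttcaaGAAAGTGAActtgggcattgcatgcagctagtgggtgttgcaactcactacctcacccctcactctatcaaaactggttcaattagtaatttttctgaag

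The copy begins at position -133 of Ms4a6c and -206 of Ms4a6b, counted from the RefSeq start. On both strands, 7.13% of 32851 RefSeq upstream windows of the same length hold this core. Ms4a7 has a match in each of its windows, at -71 and -148, and Ms4a4a, Ms4a4b and Ms4a4c have none. The gamma-activated site TTCNNNGAA (in 7.02% of windows) and the PU.1 motif GAGGAAGT (in 2.44%) matched no member. A match is a description of these letters and not a measured binding site.

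The next most extensively alike windows were those of Ms4a4b (plus strand, chr19:11443308-11443552) and Ms4a4c (plus strand, chr19:11407411-11407660). These windows shared 114 of 128 aligned columns (89.1%), and the capitals mark their longest shared run of 20 bases. Ms4a4b and Ms4a4c were also the only members whose rise at day 12 passed the test at all 3 ages. Whether the shared sequence has a part in these rises was not tested. No other pair of windows aligned over more than 22 columns. None of the 7 annotated Ms4a4b transcripts spans its window, and 1 of the 3 of Ms4a4c does, with an intron.

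Ms4a4b: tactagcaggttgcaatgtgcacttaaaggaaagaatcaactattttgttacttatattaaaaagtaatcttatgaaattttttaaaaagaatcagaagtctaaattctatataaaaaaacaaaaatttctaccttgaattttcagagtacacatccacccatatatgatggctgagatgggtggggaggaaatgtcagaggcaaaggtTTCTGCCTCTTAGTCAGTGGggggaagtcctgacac
Ms4a4c: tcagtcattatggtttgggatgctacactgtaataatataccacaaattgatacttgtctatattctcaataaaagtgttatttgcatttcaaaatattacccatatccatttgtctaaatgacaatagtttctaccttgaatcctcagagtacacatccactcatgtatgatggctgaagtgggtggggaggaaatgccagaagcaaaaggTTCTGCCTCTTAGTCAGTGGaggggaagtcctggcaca

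Related sequence also touches the counts. Of all 75-base stretches of the annotated transcripts, the length of a read, 3.78% of those of Ms4a4c also occur in Ms4a4b and 2.88% of those of Ms4a6c occur in other genes of the table. For Ms4a6c the share is 47.7% once a gene model outside the table is included, so part of its reads may not have been counted. The share was at most 1.18% for the other 5 members.

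In naive retinae the family differed widely in level. Per kilobase of exon in protein-coding transcripts, the median over the 19 naive libraries was 212 CPM (a gene's count over the library's total count, scaled per 1e6) per kb for Ms4a6d, 78.8 for Ms4a7, 58.5 for Ms4a6b, 57.7 for Ms4a6c, 19.5 for Ms4a4a and 14.7 for Ms4a4c. Ms4a4b was 0 in the median naive library. In the order of the group medians of each gene over its 9 conditions of age and day, every pair of neighbours overlapped in its libraries.

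The libraries held between 1468478 and 9836173 counts (median 4188992), so that 3 counts correspond to 0.305 to 2.04 CPM. Ms4a4b was at or under that floor in 11 of 19 naive libraries and Ms4a4a in 1 of 19 naive, 6 of 22 day 12 and 3 of 21 day 28 libraries, and the other 5 members were above it in every library. Microglia markers (8 genes, P2ry12 to Olfml3) were detected in every group, with group medians of their summed level between 10235 and 33719 CPM. Of the B cell markers Cd79a and Pax5 were at 0 in 50 and 52 of the 62 libraries, whereas Cd79b was detected in all 62 (6.10 to 119 CPM, median 56.6). Among the day 12 libraries 3 stood apart, with summed microglia markers of 28016 CPM (9-month male 2), 31965 CPM (18-month female 1) and 26846 CPM (18-month female 2), whereas the other 19 lay between 7752 and 17361 CPM. Among the naive libraries 3 held over 10 CPM of Cd3d, Cd3e and Cd3g together (18.9 in 3-month female 1, 33.6 in 18-month male 4 and 85.0 in 18-month male 2), and the other 16 held 0 to 3.99. The library whose sex genes went against its label was left out, and an 18-month male library (day 28, replicate 4) whose labels name both days was kept at day 28. Keeping the former, or leaving out or moving the latter, changed no count of members called by over 1.5 times.

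**Figure D1:**
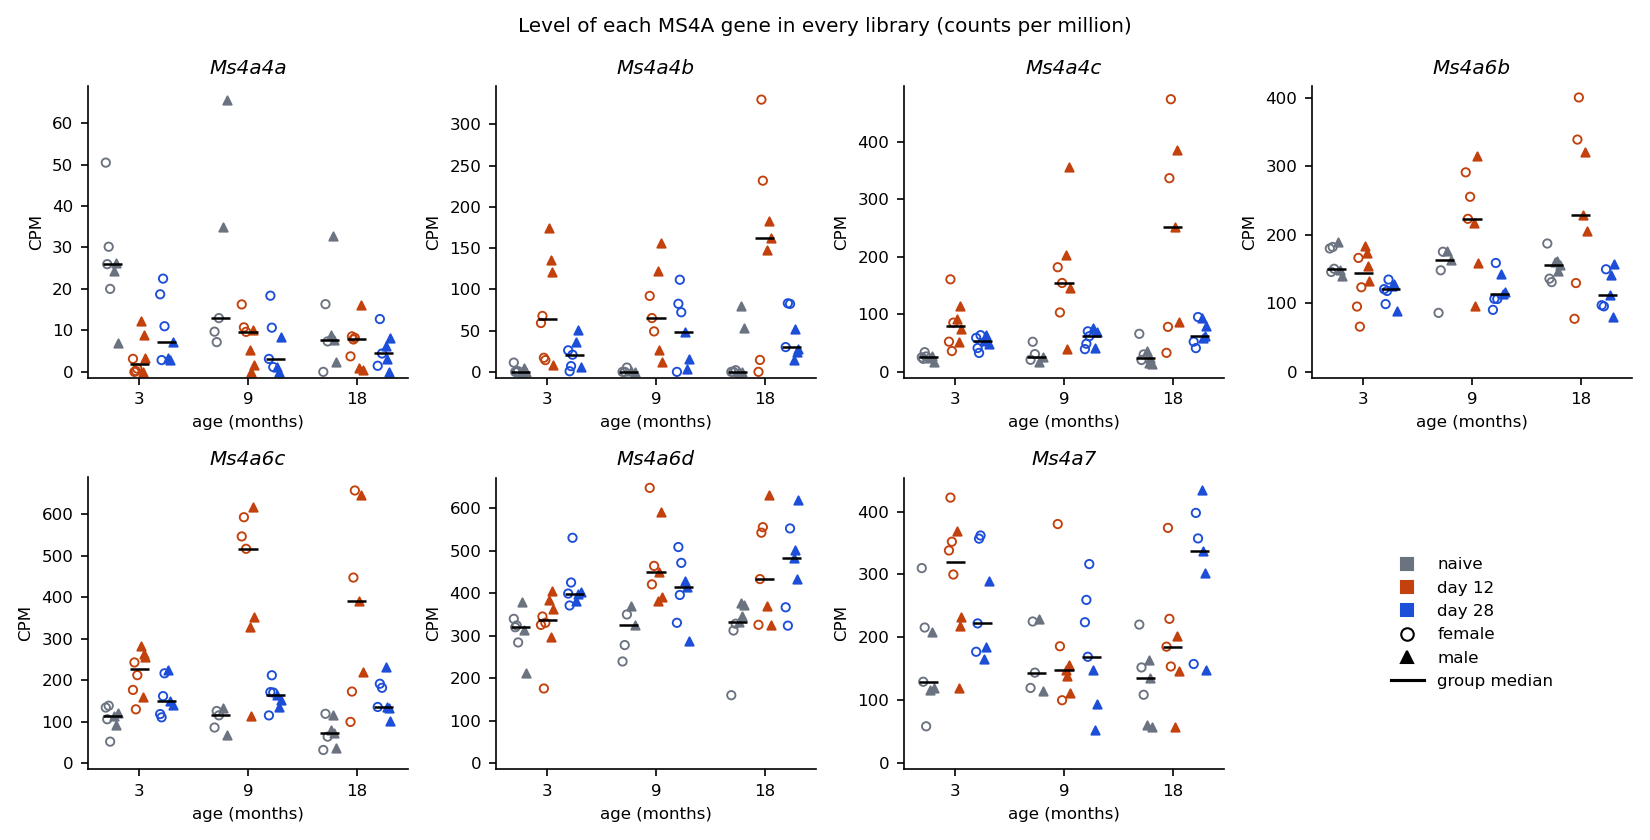
Level of each MS4A gene in every library, in CPM on a linear axis, by age in months and by naive (grey), day 12 (orange) and day 28 (blue); circles are females, triangles males and bars the group medians. At 3 months all 8 day 12 libraries of Ms4a4c, at 36.2 CPM or more, sit above the naive libraries, at 34.2 CPM or less.

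The first comparison asks which members differed between day 12, the time the study took for the height of inflammation, and uninjected retinae of the same age. At 3 months 3 of the 7 members passed edgeR's glmTreat, which asks for a change beyond 1 log2 unit, with a Benjamini-Hochberg cutoff of 0.05, where 4.64% of the 12002 genes tested passed. At 9 months 3 of 7 passed, against 3.93% of 12364 genes, and at 18 months 3 of 7 passed, against 3.01% of 11907. The median log2 fold change of the members was 0.93, 0.65 and 0.89 at the 3 ages, and that of all genes tested lay between -0.02 and 0.04. Where groups are said not to overlap, the share of all genes that do so is not given, and the statement only describes the libraries.

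Ms4a4b, the lymphocyte member, was near absent in naive retinae and rose at day 12 at all 3 ages. At 3 months the naive libraries held 0, 0 and 11.2 CPM (lowest, median, highest) and the day 12 libraries 8.25, 63.5 and 175. Of the 8 day 12 libraries 7 lay above every naive library, and the exception was male 4. The log2 fold change was 4.89 (SE 0.80; edgeR's glmTreat, Benjamini-Hochberg adjusted p = 0.000273).

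At 9 months the 5 naive libraries held 0, 0, 0, 1.26 and 5.24 CPM of Ms4a4b and the day 12 libraries 11.8, 65.2 and 157 (lowest, median, highest), with no overlap. The rise was 6.23 on the log2 scale (SE 1.21; edgeR's glmTreat, Benjamini-Hochberg adjusted p = 0.00313). It lost the call without naive male 2 (adjusted p = 0.0536 by the same Benjamini-Hochberg adjusted test), which leaves 1 naive male.

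At 18 months the naive libraries held 0, 0 and 79.7 CPM of Ms4a4b and the day 12 libraries 0, 162 and 330. The groups overlapped at both ends, since naive males 2 and 4 held 79.7 and 52.9 CPM and day 12 females 1 and 2 held 0 and 14.4. The log2 fold change was 5.10 (SE 1.15; edgeR's glmTreat, Benjamini-Hochberg adjusted p = 0.0192). Of the 13 named alternatives other than single libraries left out, 11 kept the call and the others lost it. Adjusted p over these alternatives ran from 0.000141 to 0.0710 (Benjamini-Hochberg, edgeR's or DESeq2's test), the highest being DESeq2's. Leaving out naive female 2 or 3 also ended the call (edgeR's glmTreat, Benjamini-Hochberg adjusted p = 0.0661 and 0.0523).

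The size of the fitted Ms4a4b change rests on single naive libraries, because the others are near 0. It was 6.36 without naive female 1 and 7.92 without naive male 2 at 3 months, and 9.19 without naive female 3 and 8.41 without naive male 1 at 9 months, all log2. At 18 months it was 7.45 without naive female 3. A fitted fold against a group near 0 depends on the prior count and sets no bound.

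T cell markers moved with Ms4a4b. Of 9 T cell markers tested (of 10 listed), 7 rose and 1 fell at 3 months, 7 rose at 9 months and 4 rose at 18 months by the same test. Cd3e, a subunit of the T cell receptor complex, had a median of 0 CPM in the naive libraries at each age and 6.47, 7.83 and 9.03 CPM at day 12 at 3, 9 and 18 months. At 3 months Cd3e rose by 5.38 (SE 0.68), Cd2 by 4.56 (SE 0.62), Cd3d by 6.82 (SE 0.96) and Cd3g by 4.98 (SE 0.73) on the log2 scale, and none of these overlapped between the groups. The marker that fell at 3 months was Il7r, the interleukin-7 receptor chain, with a log2 fold change of -2.13 (SE 0.42).

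The summed level of the T cell list was 22.6 to 72.2 CPM in naive and 66.0 to 447 CPM in day 12 libraries at 3 months, 22.9 to 101 and 59.1 to 184 at 9 months, and 17.9 to 232 and 8.01 to 492 at 18 months. Of the 9 genes in this sum 8, 8 and 6 had a naive median of 0 CPM at 3, 9 and 18 months. Il7r alone was above 0 in every library, so at 3 and 9 months the naive sum rests largely on it. Over the 62 libraries the log2 level of Ms4a4b and of this sum had a Pearson r of 0.82, and it was 0.70, 0.91 and 0.76 within the naive, day 12 and day 28 libraries (n = 19, 22 and 21). These points share library preparation and depth, and the r is a description. In bulk samples more T cells in the sort and more Ms4a4b RNA per cell cannot be told apart. Of 3 NK cell markers tested Klrb1c and Eomes rose at 9 months and none passed at the other ages.

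Ms4a4c, a monocyte and macrophage member that responds to interferon, rose at every age. At 3 months the naive libraries held 17.2, 25.3 and 34.2 CPM and the day 12 libraries 36.2, 80.4 and 161, with no overlap. The log2 fold change was 1.85 (SE 0.26; edgeR's glmTreat, Benjamini-Hochberg adjusted p = 0.00665). With all libraries in a single fit the same test gave an adjusted p (Benjamini-Hochberg) of 0.1003.

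At 9 months Ms4a4c held 16.4 to 52.4 CPM in the naive libraries (median 26.5) and 40.4, 155 and 356 CPM at day 12. At 18 months it held 14.3, 24.8 and 66.2 CPM in naive and 33.1, 251 and 475 CPM in day 12 libraries. At each of these ages 6 of 7 day 12 libraries lay above every naive one. The log2 fold changes were 2.64 (SE 0.42; edgeR's glmTreat, Benjamini-Hochberg adjusted p = 0.0028) at 9 months and 3.24 (SE 0.52; Benjamini-Hochberg adjusted p = 0.00257) at 18 months.

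Ms4a6c, a monocyte and macrophage member, rose at 9 and 18 months. At 9 months the naive libraries held 68.8 to 133 CPM (median 116) and the day 12 libraries 113, 517 and 619. At 18 months they held 32.2, 73.1 and 119 CPM and 99.9, 390 and 657. In both cases 6 of 7 day 12 libraries lay above every naive one.

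The log2 fold change of Ms4a6c was 2.10 at 9 months (SE 0.34; edgeR's glmTreat, Benjamini-Hochberg adjusted p = 0.0107) and 2.59 at 18 months (SE 0.42; Benjamini-Hochberg adjusted p = 0.00561). Without the 9-month naive male 2 the first lost its call (edgeR's glmTreat, Benjamini-Hochberg adjusted p = 0.101). At 3 months Ms4a6c held 52.4, 115 and 139 CPM in naive and 130, 228 and 282 CPM in day 12 libraries, 7 of 8 above every naive one, and its log2 fold change of 1.10 did not pass the test against a change of 1.

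The 3 day 12 libraries that were high in microglia markers were the lowest of their age for Ms4a4c and Ms4a6c. Ms4a4c stood at 40.4, 33.1 and 78.3 CPM in 9-month male 2, 18-month female 1 and 18-month female 2, and Ms4a6c at 113, 99.9 and 173 CPM. Without them, an alternative added after the data were seen, the log2 fold changes were 2.81 and 3.67 for Ms4a4c and 2.25 and 2.95 for Ms4a6c at 9 and 18 months, and the number of members called stayed at 3 at each of these ages. The number of all genes called at 18 months was then 639 and not 358. What sets these libraries apart was not tested. Of the 8 microglia markers 4, 3 and 2 fell at day 12 at 3, 9 and 18 months by the same test. Of the 6 monocyte markers, of which 4 to 5 were tested, Ly6c2 and Plac8 rose at 3 months, Ly6c2 at 9 months and none at 18 months, and the summed list ranged from 6.73 to 347, 12.7 to 101 and 10.1 to 985 CPM at day 12. Chil3, a defining gene of that list, was at 0 in 59 of 62 libraries. Over the 62 libraries the summed monocyte list had a Pearson r of 0.63 with Ms4a4c, 0.48 with Ms4a6c and 0.67 with Ms4a6b. Within naive, day 12 and day 28 it was 0.22, 0.66 and 0.38 for Ms4a4c and -0.57, 0.56 and 0.37 for Ms4a6c. The part of these lists in the changes of Ms4a4c and Ms4a6c was not tested.

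Ms4a4a, the macrophage member that associates with Dectin-1, fell at 3 months. The naive libraries held 6.90, 26.0 and 50.5 CPM and the day 12 libraries 0, 1.96 and 12.2, so that 6 of 8 lay below every naive one. The log2 fold change was -3.32 (SE 0.58; edgeR's glmTreat, Benjamini-Hochberg adjusted p = 0.00139), and it was -4.03 without day 12 female 1. At 9 months the groups held 7.17 to 65.7 CPM (median 12.97) and 0, 9.65 and 16.3 CPM, and at 18 months 0, 7.79 and 32.7 CPM and 0.497, 7.81 and 16.0 CPM, with log2 fold changes of -1.54 and -0.42 that did not pass.

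Border macrophage markers moved with Ms4a4a at 3 months. Of the 6 listed, 5 fell at 3 months, 4 at 9 months and 1 at 18 months by the same test. At 3 months Pf4, a chemokine gene, and Mrc1, the mannose receptor CD206, had log2 fold changes of -5.47 (SE 0.54) and -4.31 (SE 0.56), with no overlap between the groups. The summed list ranged from 108 to 521 CPM in the naive libraries and 0 to 17.9 CPM at day 12 at 3 months, 32.2 to 361 and 0 to 38.9 at 9 months, and 6.59 to 338 and 0.784 to 65.1 at 18 months. Its Pearson r with Ms4a4a was 0.61 over the 62 libraries and 0.37, 0.60 and 0.47 within naive, day 12 and day 28. Its part in the change of Ms4a4a was not tested.

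No change in Ms4a6d, Ms4a6b or Ms4a7 passed the test at day 12. Ms4a6d, the member with the highest level per kb, held 213, 320 and 380 CPM in naive and 176, 338 and 406 CPM in day 12 libraries at 3 months, and its log2 fold changes were 0.20, 0.65 and 0.75 at the 3 ages. At 9 months its 7 day 12 libraries (382 to 648 CPM) lay above all naive ones (240 to 371 CPM), a description without the share of all genes so separated. Ms4a6b held 140, 150 and 189 CPM in naive and 66.0, 144 and 183 CPM in day 12 libraries at 3 months, with log2 fold changes of -0.15, 0.59 and 0.89. Ms4a7 held 58.9, 130 and 310 CPM and 119, 319 and 422 CPM at 3 months, with log2 fold changes of 0.93, 0.14 and 0.63. None of these 9 values passed the test against a log2 fold change of 1. Although Ms4a7 is used to mark border macrophages, it did not fall at 3 months with the border macrophage list. Its Pearson r with that list was -0.13 over the 62 libraries, and 0.37, 0.45 and -0.05 within naive, day 12 and day 28.

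**Figure D2:**
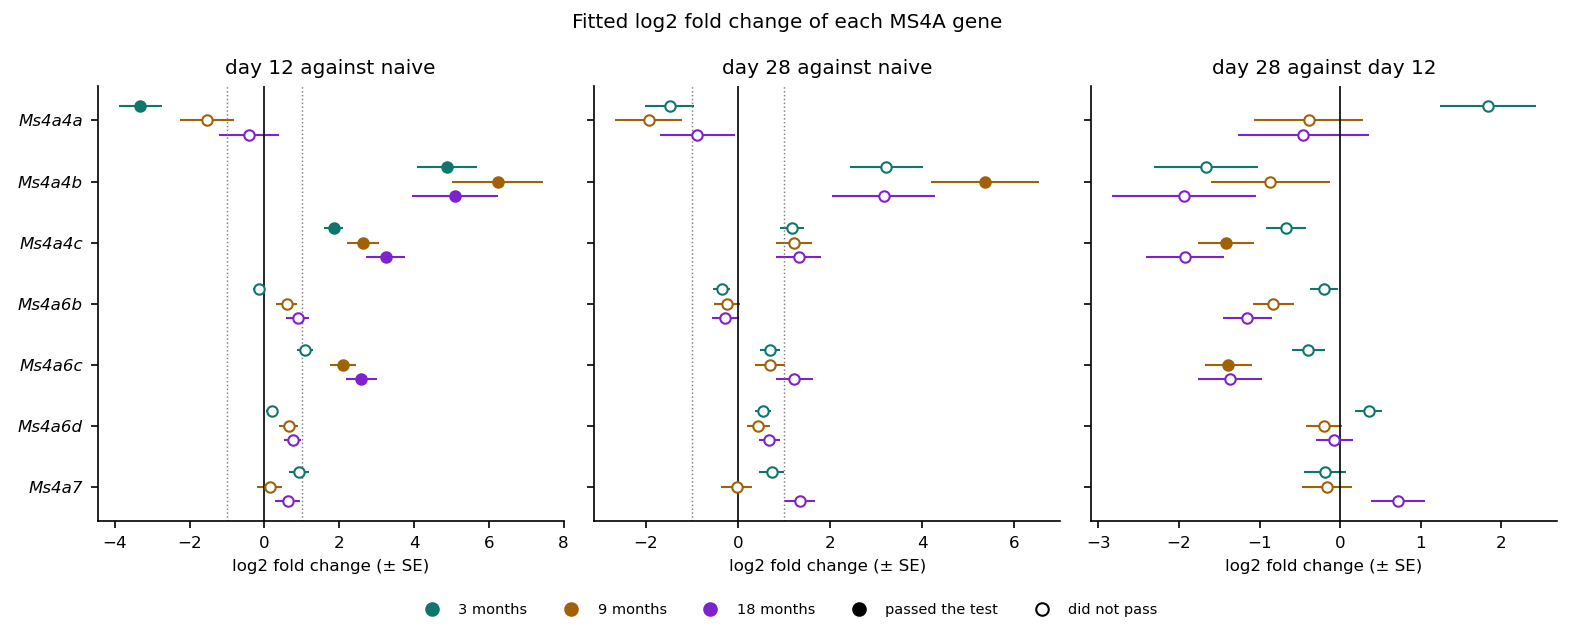
Fitted log2 fold change of each member with its standard error in the contrasts of day 12 and day 28 with naive and of day 28 with day 12, at 3 (teal), 9 (brown) and 18 months (purple); filled points passed the test and dotted lines mark the log2 fold change of 1 tested against. Ms4a4b and Ms4a4c are filled at all 3 ages at day 12, Ms4a4b alone is filled at day 28, at 9 months, and Ms4a4c and Ms4a6c fell from day 12 to day 28 at 9 months.

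The collection was spread over 2 days (27 and 35 libraries), for which the authors had adjusted the counts, and each day was also read on its own. The differences given per collection day are between the log2 of group mean CPM with 1 CPM added, with the sexes pooled and not balanced. Ms4a4c at day 12 exceeded naive by 1.65 and 1.71 at 3 months, 3.32 and 1.85 at 9 months, and 1.60 and 3.77 at 18 months on the first and second collection day. Ms4a6c exceeded naive by 1.87 and 2.22 at 9 months and 1.52 and 2.73 at 18 months.

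On the same scale Ms4a4b exceeded naive by 4.70 and 3.48 at 3 months, 5.95 and 3.97 at 9 months, and 1.002 and 3.95 at 18 months. Its mean at day 12 at 3 months was 123 CPM among the 4 libraries of the first day and 26.9 CPM among the 4 of the second. The former were mostly males and the latter mostly females, and by sex the means were 110 CPM in males and 39.6 CPM in females. Collection day and sex therefore cannot be told apart in this contrast of means. Ms4a4a differed by -2.29 and -3.39 at 3 months. All of these kept their direction on both days, whereas Ms4a6b at 18 months (-0.22 and 1.14) and Ms4a7 at 9 months (0.24 and -0.28) did not.

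The next comparison sets day 28, the later time after injection, against naive. At 3 months 0 of 7 members passed glmTreat, where 1% of all genes tested did, with 1 member at an unadjusted p under 0.05 and 0 called by DESeq2. At 9 months 1 of 7 passed, against 0.752% of genes. At 18 months 0 of 7 passed, against 0.521%, with 1 member at an unadjusted p under 0.05 and 0 called by DESeq2.

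The member called at 9 months was Ms4a4b, with 0, 48.6 and 112 CPM at day 28, of which 5 of 7 libraries lay above every naive one. Its log2 fold change was 5.37 (SE 1.17; edgeR's glmTreat, Benjamini-Hochberg adjusted p = 0.0365). The call was lost by DESeq2 (Benjamini-Hochberg adjusted p = 0.144) and when any of 9 libraries was left out, with adjusted p up to 0.373 without naive male 2 (edgeR's glmTreat, Benjamini-Hochberg). Its mean was 24.3 CPM at day 28 and 0.629 CPM in naive libraries of the first collection day, and 57.1 and 1.75 CPM on the second. Of the 9 T cell markers tested, 7 also rose at 9 months, 3 at 3 months and 0 at 18 months.

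At the other ages Ms4a4b at day 28 held 0.758, 20.8 and 50.6 CPM (3 months) and 14.0, 30.1 and 83.1 CPM (18 months). The log2 fold changes were 3.23 and 3.17 (edgeR's glmTreat, Benjamini-Hochberg adjusted p = 0.101 and 0.647). Both passed once the naive libraries with Cd3 transcripts were left out, an alternative added after the data were seen (edgeR's glmTreat, Benjamini-Hochberg adjusted p = 0.00525 and 0.0231). The libraries left out were the highest naive ones of their age for Ms4a4b, up to 11.2 CPM at 3 months and 79.7 CPM at 18 months. The choice itself lowers the naive level, so no conclusion is drawn from these passes. The T cell sum at day 28 was 22.8 to 124 CPM at 3 months, 34.6 to 220 CPM at 9 months and 29.0 to 168 CPM at 18 months.

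The log2 fold changes of the other 6 members at day 28 lay between -1.93 and 1.35. Ms4a4c held 33.0, 54.5 and 64.2 CPM at 3 months, 39.6, 62.1 and 76.8 CPM at 9 months and 41.3, 62.3 and 95.5 CPM at 18 months, narrower ranges than at day 12. Ms4a6c held 111, 150 and 224 CPM, 116, 165 and 212 CPM, and 103, 137 and 233 CPM at the same ages. Ms4a6b at 3 months held 89.1, 121 and 135 CPM, all 7 libraries below every naive one, with a log2 fold change of -0.35 that did not pass. The share of all genes so separated is not given.

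Ms4a7 and Ms4a6d had no called change at day 28. Ms4a7 at 18 months held 148, 337 and 435 CPM at day 28 and 57.6, 135 and 220 CPM in naive libraries, with 5 of 7 above every naive one and a log2 fold change of 1.35 (SE 0.34) that did not pass. Ms4a6d held 371 to 530 CPM at 3 months, 289 to 509 CPM at 9 months and 324 to 620 CPM at 18 months, with log2 fold changes of 0.55, 0.44 and 0.68. Ms4a4a held 2.84, 7.26 and 22.5 CPM at 3 months, 0, 3.13 and 18.4 CPM at 9 months and 0, 4.43 and 12.7 CPM at 18 months.

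Day 28 was also set directly against day 12 with edgeR's quasi-likelihood test, which asks for any difference. At 9 months 2 of 7 members passed, both lower, where 5.80% of genes did. Ms4a4c fell by 1.42 on the log2 scale (SE 0.35; edgeR's quasi-likelihood test, Benjamini-Hochberg adjusted p = 0.0164), a call lost without day 28 male 3 (Benjamini-Hochberg adjusted p = 0.0655). Ms4a6c fell by 1.39 (SE 0.29; edgeR's quasi-likelihood test, Benjamini-Hochberg adjusted p = 0.00637). On the first and second collection day Ms4a4c averaged 58.2 and 58.6 CPM at day 28 against 196 and 134 CPM at day 12. Ms4a6c averaged 140 and 168 CPM at day 28 against 402 and 487 CPM at day 12, so that both were lower on each day.

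At 3 months 0 of 7 members passed, where 7.28% of genes did, with 4 at an unadjusted p under 0.05 and 0 called by DESeq2. Ms4a4a had the lowest adjusted p there, with a log2 fold change of 1.84 (edgeR's quasi-likelihood test, Benjamini-Hochberg adjusted p = 0.0540). With the replicate number as a block it was 1.92 and passed (Benjamini-Hochberg adjusted p = 0.0378).

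At 18 months 0 of 7 passed, where 0.957% of genes did, with 5 members at an unadjusted p under 0.05. The log2 fold changes were -1.92 for Ms4a4c, -1.15 for Ms4a6b and -1.37 for Ms4a6c (edgeR's quasi-likelihood test, Benjamini-Hochberg adjusted p = 0.0539, 0.0577 and 0.0852). DESeq2 called these 3. Without the 2 day 12 libraries of this age that were high in microglia markers 4 members passed, these and Ms4a4b, and leaving out day 12 female 1, female 2 or male 3, or naive female 1, gave 3. The 2 libraries were the lowest day 12 ones of this age for Ms4a4c and Ms4a6c, so leaving them out widens the difference by selection.

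Whether the day 12 change differed between the sexes was tested at each age, as the male minus the female change. The counts of members past an adjusted p of 0.1 (edgeR's quasi-likelihood test, Benjamini-Hochberg) were 0 at all 3 ages, where 0.0583%, 0.00809% and 0% of genes passed. At each age 1 member had an unadjusted p under 0.05, and DESeq2 called 0. At 3 months this was Ms4a4a, with group means of 1.03 CPM in 4 females and 6.12 CPM in 4 males at day 12 and a log2 difference of 3.45 (edgeR's quasi-likelihood test, Benjamini-Hochberg adjusted p = 0.380). At 9 months it was again Ms4a4a (-3.70) and at 18 months Ms4a4b (-5.31), with adjusted p of 0.976 and 0.697 (edgeR's quasi-likelihood test, Benjamini-Hochberg). At 18 months 830 of the 11907 genes had an unadjusted p under 0.05.

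The ages were compared at each day by edgeR's quasi-likelihood test at an adjusted p under 0.1, and no member passed in any of the 6 contrasts. In naive retinae 0% of genes differed between 9 and 3 months (310 of 12294 at an unadjusted p under 0.05) and 0.0651% between 18 and 3 months, with 0 and 1 members at an unadjusted p under 0.05. At day 28 the shares were 0% (525 of 11832 genes at an unadjusted p under 0.05) and 0.220%, with 1 and 0 such members. DESeq2 called 0 members in these 4 contrasts.

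At day 12 2.01% of genes differed between 9 and 3 months and 1.68% between 18 and 3 months. Of the members 3 and 4 had an unadjusted p under 0.05, and DESeq2 called 0 and 1. The highest single libraries of Ms4a4c, Ms4a6b and Ms4a6c came from the older retinae. Of 7 day 12 libraries at 9 months 5 lay above all 8 of 3 months for Ms4a6b and 6 for Ms4a6c, and at 18 months 5 and 4 did. By collection day, the log2 difference of 18 from 3 months (group mean CPM with 1 CPM added) was -0.06 and 1.37 (first and second day) for Ms4a6b, -0.00046 and 1.22 for Ms4a6c, and 0.63 and 1.83 for Ms4a4c. The 9-month differences were 0.60 and 0.79 for Ms4a6b and 0.86 and 1.21 for Ms4a6c. At 18 months the 3 first-day libraries include both that were high in microglia markers, so leaving these out leaves 1 library of that day.

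The log2 difference of 18 from 3 months at day 12 was 1.62 for Ms4a4c (edgeR's quasi-likelihood test, Benjamini-Hochberg adjusted p = 0.130). Without the 3 day 12 libraries that were high in microglia markers 3 members passed between 9 and 3 months and 4 between 18 and 3 months, Ms4a4c then at 2.00 (edgeR's quasi-likelihood test, Benjamini-Hochberg adjusted p = 0.000972). Leaving out 18-month female 1 alone gave 1.76 for Ms4a4c (edgeR's quasi-likelihood test, Benjamini-Hochberg adjusted p = 0.0483). The libraries left out here all came from 9 or 18 months and were the lowest of their age for Ms4a4c and Ms4a6c. Leaving them out raises the older day 12 levels by selection, so these passes are no test of an age difference.

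The difference of the day 12 changes between ages was tested in a fit over all 18 groups. No member passed, where 0.0368% of 13584 genes did for 9 against 3 months and 0.155% for 18 against 3 months. For 9 against 3 months 1 member had an unadjusted p under 0.05 and DESeq2 called 0, and for 18 against 3 months 4 had and DESeq2 called 1. For 18 against 3 months the difference was 1.47 for Ms4a6c (SE 0.46; edgeR's quasi-likelihood test, Benjamini-Hochberg adjusted p = 0.169) and 1.37 for Ms4a4c (Benjamini-Hochberg adjusted p = 0.325). In the fit with all libraries the called rises of Ms4a6c at 9 and 18 months were therefore not shown to differ from its change at 3 months. Without the 3 libraries high in microglia markers the difference for 18 against 3 months passed for Ms4a4c (1.79), Ms4a6b (1.35) and Ms4a6c (1.83), with adjusted p of 0.0339, 0.00929 and 0.00935 (edgeR's quasi-likelihood test, Benjamini-Hochberg). Those libraries were chosen after the data were seen and were low in Ms4a4c and Ms4a6c, with none from 3 months. The choice itself widens this difference, so no conclusion is drawn from it. Leaving out 18-month naive female 2, day 12 female 1 or day 12 male 3 alone gave 1 member.

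Of 14 further family genes 13 were in the table, and Ms4a14 was not analysed here. In the comparisons of days and sexes, Tmem176a and Tmem176b, related genes outside the cluster, were the 2 that passed the filter on low counts, and 2 to 4 of the list passed it in the comparisons of ages, with 0 called. At 3 months Tmem176b held 605, 771 and 904 CPM in naive and 175, 223 and 438 CPM in day 12 libraries, and it fell by 1.48 (SE 0.16; edgeR's glmTreat, Benjamini-Hochberg adjusted p = 0.0175). Tmem176a had log2 fold changes of -1.53 at 3 months and -1.71 at 9 months (SE 0.21 and 0.26; Benjamini-Hochberg adjusted p = 0.0405 and 0.0358).

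Neither gene passed at 18 months, and Tmem176a rose from day 12 to day 28 at 3 months by 0.77 and at 9 months by 0.83. Ms4a1 (CD20) was at 0 in 52 of 62 libraries and Ms4a2, the beta chain of the high-affinity IgE receptor, in 60. Ms4a3, Ms4a5, Ms4a10, Ms4a12, Ms4a13 and Ms4a18 were at 0 in all 62.

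Of 12 genes around TREM2 and Dectin-1, all tested, 1 rose at day 12 at 3 months and 0 passed at 9 or 18 months. Their median log2 fold change was 0.22, -0.04 and -0.11. The gene that rose was Apoe, the lipid carrier and TREM2 ligand, with 4204, 5873 and 10674 CPM in naive and 14552, 21527 and 32997 CPM in day 12 libraries at 3 months (log2 fold change 1.98, SE 0.19; edgeR's glmTreat, Benjamini-Hochberg adjusted p = 6.6e-05). It was also the 1 gene of the list that rose at day 28 at 3 months (2.12, SE 0.20). Trem2 itself rose from day 12 to day 28 by 0.62, 1.46 and 0.98 at 3, 9 and 18 months by the quasi-likelihood test.

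**Figure D3:**
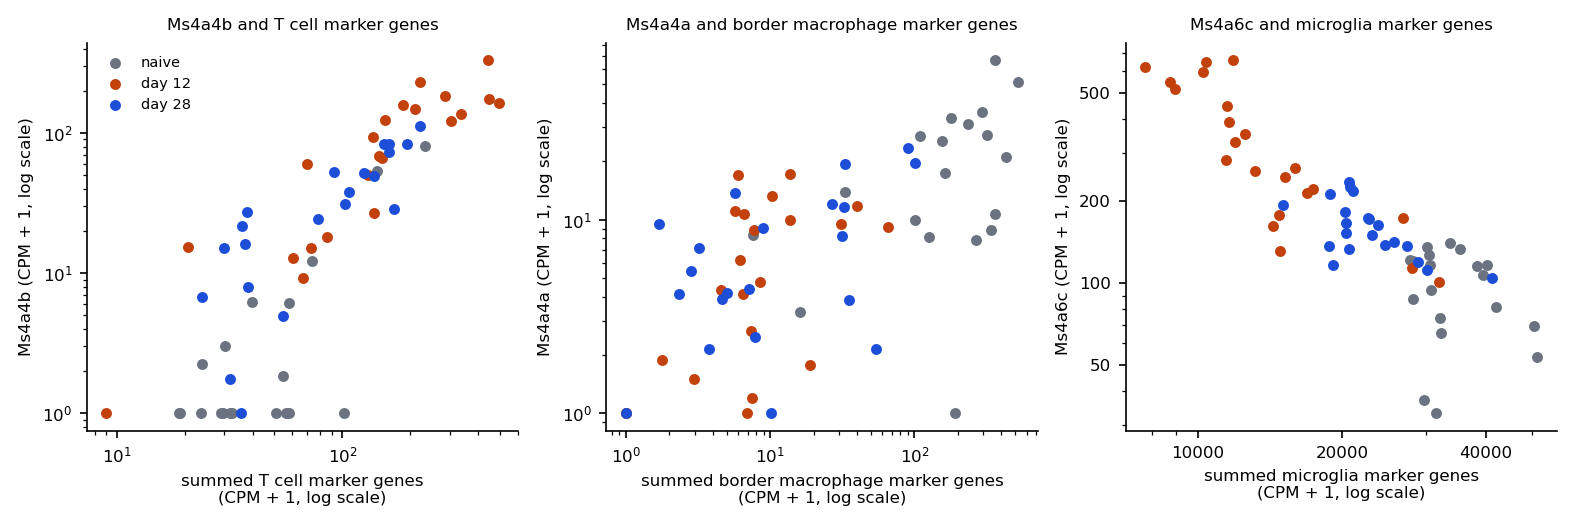
Ms4a4b against the summed T cell markers, Ms4a4a against the summed border macrophage markers and Ms4a6c against the summed microglia markers, 1 point a library, all axes in CPM with 1 added on a log scale. The Pearson r over the 62 libraries was 0.82, 0.61 and -0.86, and for Ms4a6c it was -0.16, -0.86 and -0.62 within the naive, day 12 and day 28 libraries (n = 19, 22 and 21).

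The members did not move as a block across the 62 libraries. The highest Pearson r of log2 CPM between members was 0.82, for Ms4a4c and Ms4a6c, followed by 0.66 for Ms4a4b with Ms4a4c and with Ms4a6c. Ms4a6b and Ms4a6c, whose full windows, exonic bases included, were alike over the longest stretch, had 0.53. Ms4a4a and Ms4a7 had 0.28 and 0.25 at most with any other member. Ms4a6c had an r of -0.86 and Ms4a4c of -0.80 with the summed microglia markers, whose median was 33719 CPM in naive and 14787 CPM in day 12 libraries at 3 months. Within the naive, day 12 and day 28 libraries the r of Ms4a4c was 0.02, -0.69 and 0.01, so an inverse relation appeared within day 12 only. All of these values share depth, library preparation and the total that CPM divides by.

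**Figure D4:**
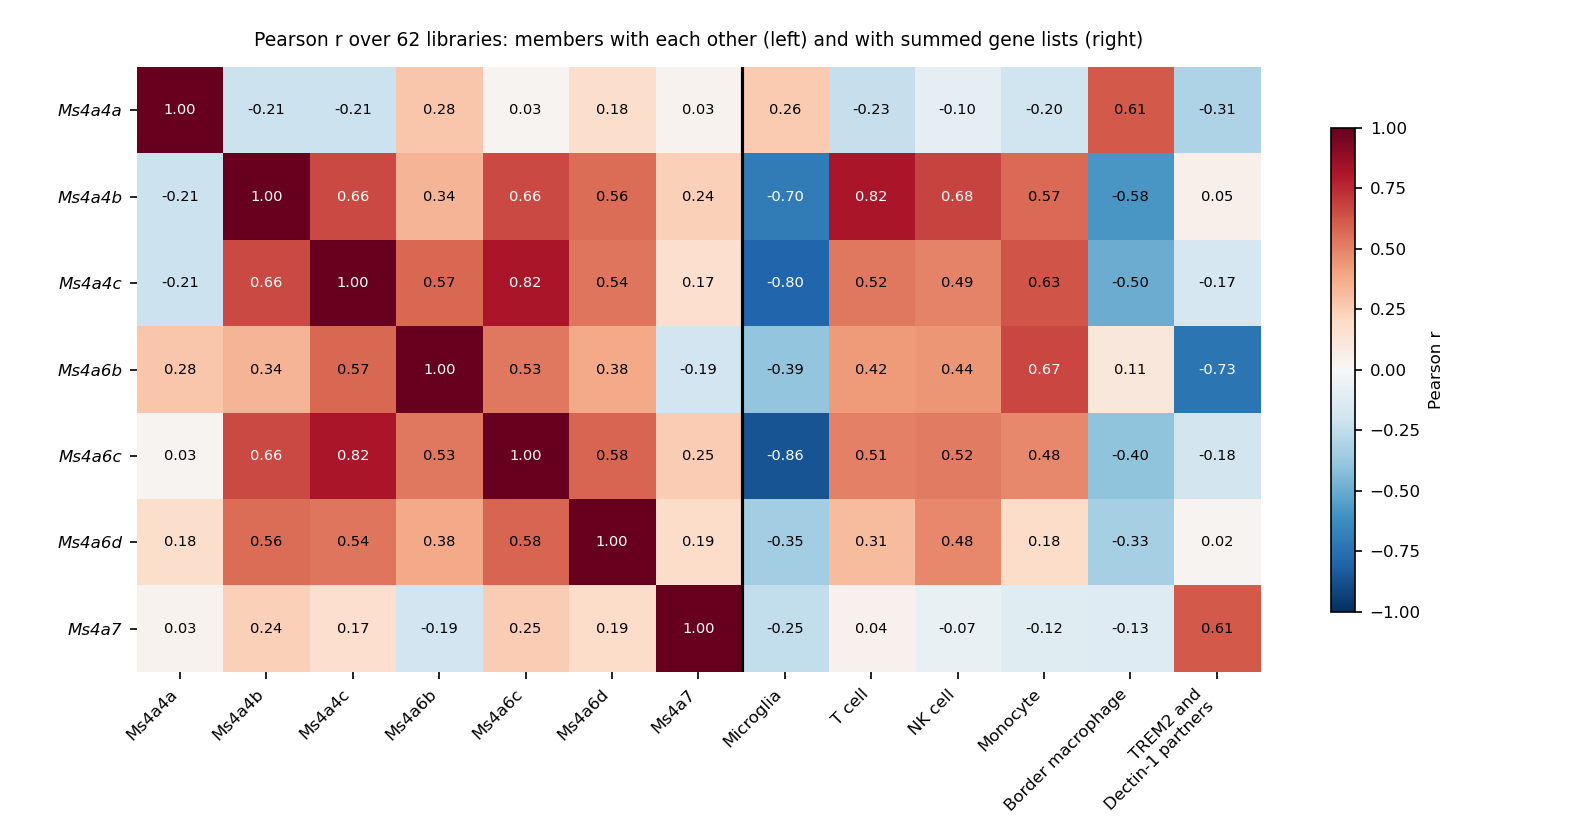
Pearson r of log2 CPM over the 62 libraries between the 7 members (left of the line) and between each member and the summed level of 6 gene lists (right), coloured from -1 (blue) to 1 (red). Ms4a4c and Ms4a6c are the most alike pair at 0.82, and Ms4a4b is most alike to the T cell list, also at 0.82.

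Each member was nearest to different genes among the 13584 that passed the filter. For Ms4a4b these were Nkg7 (r = 0.93), a cytotoxic granule gene, Cd2 (0.93), an adhesion receptor of T and NK cells, and Cd3e (0.92). For Ms4a4c they were Ifi211 (0.89), Gm12250 (0.89) and Ifi206 (0.88), the first and last being interferon-induced genes of the same family. For Ms4a6c they were Ifi30 (0.88), a lysosomal thiol reductase of antigen processing, Psme2b (0.88) and Prdx5 (0.88), a peroxiredoxin.

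For Ms4a6b they were Stmn1 (0.84), which binds tubulin, Birc5 (0.81), the mitotic protein survivin, and Hmmr (0.81), a spindle-associated hyaluronan receptor. For Ms4a7 they were Apoc4 (0.66), Ctla2b (0.66) and Apoe (0.63). For Ms4a4a they were Septin7 (0.63), Mrc1 (0.61) and F13a1 (0.59), the last a coagulation factor subunit on the border macrophage list. For Ms4a6d they were Fcgr2b (0.69), the inhibitory Fc receptor, Uchl5 (0.65) and Cetn2 (0.64). All are values over 62 libraries with the same shared depth and preparation, given as descriptions. By Spearman's rank correlation only 1 of the 3 genes stayed among the nearest 3 for Ms4a4b, Ms4a4c, Ms4a6b and Ms4a6d. Uchl5 then had a rho of 0.42 with Ms4a6d. With a prior count of 0.5 only 1 of the 3 stayed for Ms4a4a.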

How the data were processed

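Retinal tdTomato-high cells, 600 per library, were profiled by SMART-Seq v4 and Nextera XT on a NextSeq 500, with a kit that does not preserve strand. Per the labels and methods, the authors used bcl2fastq 2.20, STAR 2.7.8a (mm10), featureCounts 2.0.1 and R 4.2.2, and ComBat_seq from sva 3.46.0 for the 2 collection days. The deposited values analysed here are the batch-corrected counts per gene. The members and gene lists were chosen with earlier results of these data known. The genes named beyond the members were the 3 most correlated with each member and, from the lists, those past the threshold whose libraries did not overlap (at most 4 a list) and defining markers at or near 0. Other genes that are named for a small count were chosen after their values were seen.

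CPM was a gene's count over the library's total, scaled per 1e6. A count of 3 was taken as the floor, which covers counting error only. Tests were fitted across all genes with edgeR 4.0.16 (limma 3.58.1, R 4.3.3), after its filter on low counts and TMM scaling, with Benjamini-Hochberg adjustment over all genes tested. Each age had a fit of its 6 groups of sex and day and each day a fit of its age and sex groups, and the age differences of the day 12 change used all 18 groups, each with no covariate. Days were compared with naive by glmTreat (change beyond 1 log2 unit, adjusted p under 0.05), day 28 with day 12 by the quasi-likelihood test at 0.05, and ages and interactions by the quasi-likelihood test at 0.1. DESeq2 1.42.0 and 10 other settings were run beside each library left out in turn, and 2 settings were added after the data were seen. The code was tested on simulated data. Correlations used log2 CPM with a prior count of 2. Of the 64 libraries, 2 were not used here: 9-month male day 28 replicate 1 has no column in the batch-corrected table analysed, and 18-month female day 28 replicate 1 was left out because its expression went against the labelled sex. No library pair held identical values. Marker genes and upstream windows came from a list fixed by symbol and from RefSeq (GRCm38.p6), and transcripts from GENCODE. Some marker genes are not reported here.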

Additional observations from a re-analysis of the deposited data

Results flagged for a closer look

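Each member was tested in each group of 4 libraries, 63 tests in all, and tests in the same group share their libraries. In 3 of the 63 tests 1 library stood far from the others of its age, sex and day, and chance alone gives about 1 in 20. Ms4a4a was 3.74 CPM in 18-month female day 12 replicate 1 and 7.81 to 8.55 CPM in the others. Ms4a4b, the lymphocyte gene, was 11.2 CPM in 3-month female naive replicate 1 and 0 to 0.834 CPM in the others, and that library also held 18.9 CPM of Cd3d, Cd3e and Cd3g together. Ms4a6d was 176 CPM in 3-month female day 12 replicate 3 and 326 to 345 CPM in the others. The first of these libraries is also among the 3 day 12 libraries that were high in microglia markers.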

How the results depend on the processing

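Over the alternatives without a single library left out, 458 of the members' fold changes kept their direction and side of the threshold, 51 gained and 7 lost a call, and 1 reversed: the Ms4a4b sex difference of the day 12 change at 18 months was -5.31 and became 4.69 without the naive libraries with Cd3 transcripts. The cause was not tested for these, except that fewer libraries enter where some are left out. All 126 levels moved by less than their spread, and 5 of 14 lists of most similar genes changed.

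The number of members called at day 28 against naive was 0, 1 and 0 at 3, 9 and 18 months. At 3 months it was 1 with no filter on low counts, 2 by the plain quasi-likelihood test and 1 without the naive libraries with Cd3 transcripts, and at 18 months 1 by each of the last pair. At 9 months it was 0 with DESeq2, with uncorrected counts and no batch term, and with all libraries in 1 fit. For day 28 against day 12, no filter gave 3, 4 and 3 members at the 3 ages where 0, 2 and 0 were called, and at 18 months DESeq2 and the single fit gave 3 each and leaving out the libraries high in microglia markers 4. No filter gave 2 and 1 members for the sex difference at 3 and 9 months. For 9 against 3 months it gave 1 at day 12, 2 at day 28 and 1 for the change at day 12, and for 18 against 3 months 2, 1 and 4, all from 0. At day 12, 18 against 3 months had 1 member with DESeq2, 2 in the single fit and 4 without the libraries high in microglia markers, which gave 3 for 9 against 3 months. The age difference of the change had 1 with DESeq2 and 3 without those libraries for 18 against 3 months. Leaving out libraries by marker genes selects on levels that go with those of the members, so no conclusion is drawn from the counts it gave.

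The replicate block gave 1 member at day 28 against naive at 3 months (Ms4a4b) and 0 at 9 months, and 1 at day 28 against day 12 at 3 months (Ms4a4a) and at 18 months (Ms4a6b). It moved no other count of members called by over 1.5 times. Libraries with the same number did not deviate together (mean r of -0.0187 over 135 pairs, against 0.00638 over 398 others), and 11 of 62 correlated best with their own number. The number did go with collection day, since every replicate 1 was of the first day and every replicate 4 of the second. By the study's methods mice were assigned in blocks that depended on cage and litter. A low r in corrected counts cannot show that libraries of a number share nothing else.

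With each library left out in turn, members called at day 12 against naive were 3 to 3, 1 to 3 and 2 to 3 at the 3 ages, the 1 being without 9-month naive male 2. At day 28 against naive they were 0 to 1 at 3 and 9 months, and at day 28 against day 12 0 to 1, 1 to 3 and 0 to 3. Between ages at day 12 they were 0 to 1 (9 months) and 0 to 2 (18 months), and for the age difference of the change 0 to 1 at 18 months. In the fit over all groups the day 28 libraries were not left out.

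The number of all genes called moved more. At day 12 against naive 557, 486 and 358 genes were called at the 3 ages, with 414 to 1395, 389 to 1501 and 234 to 1167 over the alternatives. At day 28 against naive the values were 120 (67 to 403), 93 (66 to 261) and 62 (37 to 380), and at day 28 against day 12 874 (379 to 1151), 717 (393 to 1266) and 114 (0 to 921). For the sex difference they were 7 (0 to 167), 1 (0 to 59) and 0 (0 to 31). For 9 and 18 against 3 months they were 0 (0 to 13) and 8 (0 to 55) in naive, 236 (48 to 620) and 197 (12 to 728) at day 12, 0 (0 to 75) and 26 (6 to 140) at day 28, and 5 (2 to 208) and 21 (0 to 396) for the change at day 12. Depth limits Ms4a4b and Ms4a4a most, since 3 counts are up to 2.04 CPM.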
